A study of Mus musculus with 2 samples.

Results

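The genes described here are active in visceral smooth muscle, the contractile layer that surrounds the gut, though not only there. They were measured in pancreatic buds of mice with a conditional deletion of the transcription factor genes Gata4 and Gata6. The set holds 7 symbols, all of which were found in the authors' deposited table of 250 genes. They are the transcriptional coactivator gene Myocd, the contractile and filament genes Acta2, Actg2, Cnn1, Myh11 and Des, and the muscarinic receptor gene Chrm2. The symbols were chosen with their values in these libraries known, so the directions given below describe the set and have no test.

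RNA from whole pancreas of e12.5 mouse embryos was sequenced as 1 library for each of 2 genotypes. The mutant library, Pdxcre;Gata4fl/fl;Gata6fl/fl, came from a pool of 12 pancreata. The title of the series adds Tom to that genotype. For the control library 6 pancreata were pooled, and its alleles are not given beyond the word control. The Cre is driven by the Pdx1 promoter, which works in epithelial cells of the bud, whereas smooth muscle arises from the mesenchyme around them. No sorting of cells is described, so more cells of a type and more RNA per cell cannot be told apart in any value below.

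In smooth muscle, myocardin (Myocd) binds serum response factor and switches on the contractile genes through a short sequence in their promoters called the CArG box. Contraction then rests on smooth muscle actins, on a myosin heavy chain and on regulatory proteins such as calponin, with desmin forming the filaments that hold the contractile units in place. In the embryonic gut, hedgehog ligands from the epithelium act on the surrounding mesenchyme and favour the formation of this muscle. Acetylcholine from enteric nerves later makes it contract through muscarinic receptors.

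Values are FPKM, read fragments normalised for transcript length and sequencing yield, as the authors deposited them. No value has an error, because each genotype has 1 library. Of depth, the series states only that over 20000000 reads were mapped, so the depth of a single library is unknown. Only genes that the authors marked as significant are in the table, 1.67% of those tested. Neither Gata4 nor Gata6 is in it, so the genotypes could not be checked against the targeted genes. The pancreatic genes Cpa1 and Gcg, which encode a digestive carboxypeptidase and glucagon, were present in both libraries. Cpa1 was at 3.39 FPKM in the mutant library and 277 FPKM in the control library, and Gcg was at 83.2 FPKM in the mutant library and 612 FPKM in the control library.

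Of the 7 genes, 6 were higher in the mutant library and 1, Des, was lower. Differences are given as log2((mutant FPKM + 1)/(control FPKM + 1)), here called the log2 ratio. Higher and lower mean a log2 ratio of 1 or more in size, that is 2-fold, in a gene that reached 1 FPKM in the mutant or the control library. By the same rule 48.4% of the table's genes were higher in the mutant and 45.2% were lower. The table was chosen for change and the genes for their change within it, so these shares are given as background. The median log2 ratio of the 7 genes was 1.97, and that of all 250 rows was 0.87.

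**Figure D1:**
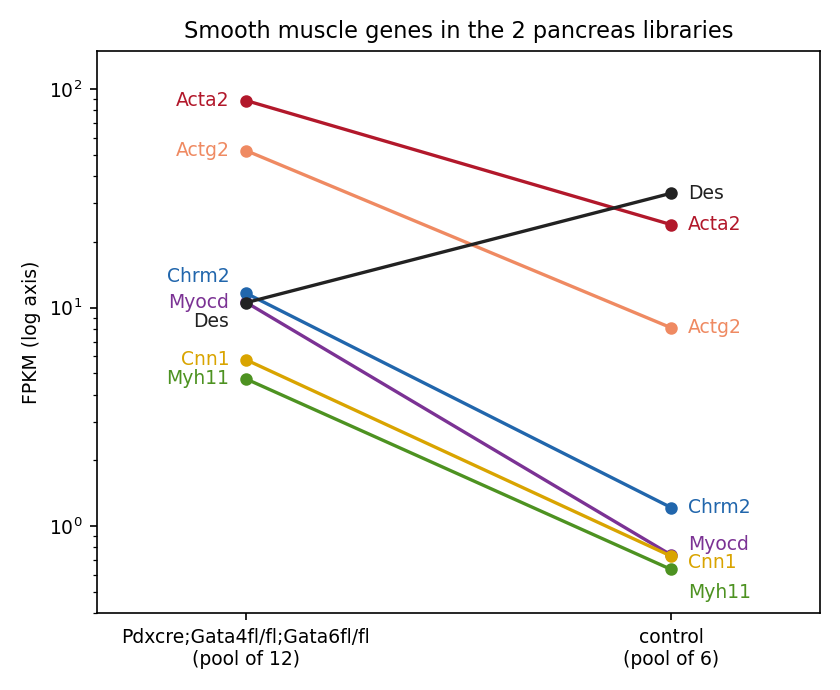
FPKM of the 7 genes (log axis) in the mutant library (left) and the control library (right), with 1 point per gene and library and lines joining the same gene. The lines of 6 genes slope down to the control, with Acta2 highest in the mutant at 88.8 FPKM, while Des slopes up and is the highest in the control at 33.4 FPKM.

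Myocd had the largest difference of the set. Its level was 10.6 FPKM in the mutant library and 0.739 FPKM in the control library, which is 14.3-fold higher in the mutant. Its log2 ratio of 2.74 was the 14th highest among the 250 genes. In the authors' deposited table its q was 8.54e-08, the lowest of the 7, and that q compares the same pair of libraries without replicates. The table places the gene on mm9 chromosome 11, bases 64990072 to 65083491, which is within 9 bases of the GENCODE vM1 gene at each end, on the minus strand. Myocd was under 1 FPKM in the control, so it was not called when 1 FPKM was required in both libraries.

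The smooth muscle actins were the most abundant of the set in the mutant. Acta2, the α-actin of vascular and visceral smooth muscle (chromosome 19, 34315581 to 34329826, minus strand), had 88.8 FPKM in the mutant library and 24.0 FPKM in the control library. Its 3.70-fold difference was the smallest of the 6 higher genes. Acta2 was the third highest of all 250 genes in the mutant by FPKM and the 45th highest in the control. Actg2, the γ-actin of enteric smooth muscle (chromosome 6, 83462903 to 83486245, minus strand), had 52.4 FPKM in the mutant library and 8.10 FPKM in the control library, a 6.47-fold difference. The level of Actg2 relative to Acta2 was therefore 0.590 in the mutant and 0.337 in the control. Together the pair summed to 141 FPKM in the mutant and 32.1 FPKM in the control, a 4.40-fold difference. The log2 ratios were 1.84 for Acta2, with q 0.000136 in the authors' deposited table, and 2.55 for Actg2, with q 2.85e-05 there.

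The promoter of Acta2 is printed because, of the 4 member promoters examined, it was the one that held matches to the CArG box. The 250 bases before its RefSeq start site are given 5′ to 3′, with 10-base matches to the CArG box in capitals. They were taken from the RefSeq promoter table (GRCm38.p6) and placed by an exact match on mm9 at chr19:34329864-34330113, minus strand.

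Acta2: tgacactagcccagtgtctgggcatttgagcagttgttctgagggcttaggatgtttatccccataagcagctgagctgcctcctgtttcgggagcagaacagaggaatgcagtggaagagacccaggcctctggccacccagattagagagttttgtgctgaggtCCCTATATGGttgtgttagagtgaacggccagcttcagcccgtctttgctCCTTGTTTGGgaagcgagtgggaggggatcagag

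The search covered both strands, since the box is its own reverse complement in form, and allowed 1 G or C among the 6 central A or T bases. The matches began 84 and 34 bases before the RefSeq start site, and each held 1 such changed base. The GENCODE vM1 gene starts further downstream, at base 34329826 against a window edge of 34329864. Both matches therefore lie farther from that start. Of 32851 RefSeq promoter windows of this length, 8.59% held at least 1 such match, 0.670% held 2 or more, and 1.47% held a CArG box without a changed base. The promoters of Chrm2, Cnn1 and Des were also in that table, and no match was in their windows. The Gli binding sequence GACCACCCA, searched on both strands, was in none of these 4 windows and in 0.225% of all windows. Promoters of Myocd, Actg2 and Myh11 were not used here.

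Actin genes resemble each other, and the authors' alignment allowed up to 10 hits per read and 4 mismatches, so the separation of Acta2 from Actg2 was examined in their sequences. The coding sequences of the GENCODE transcripts differed at 176 of 1131 aligned bases, an identity of 84.4%. Of the 50-base windows of the Acta2 coding sequence, 6.73% had 4 or fewer differences from Actg2, 8.39% from the skeletal actin gene Acta1 4.42% from the cardiac and embryonic striated actin gene Actc1, 10.0% from the cytoplasmic actin gene Actb and 6.91% from its relative Actg1. For Actg2 the largest share was 12.9%, against Actc1. The window of 50 bases was a choice, as no source used here gives the read length. The longest identical run between the pair was 29 bases. It is printed here with 20 flanking bases on each side, with differing bases in capitals, for coding bases 617 to 685 of Acta2 and 614 to 682 of Actg2.

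Acta2: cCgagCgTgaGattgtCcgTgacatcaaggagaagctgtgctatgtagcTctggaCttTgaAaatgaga

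Actg2: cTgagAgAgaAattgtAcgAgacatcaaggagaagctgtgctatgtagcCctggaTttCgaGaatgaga

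The 10 differences in these 69 bases flank the shared run. Actc1 was at 17.8 FPKM in the mutant library and 0.224 FPKM in the control library, where Acta2 stood at 24.0 FPKM. Acta1 was at 4.58 FPKM in the mutant library and 0.433 FPKM in the control library. Of the 6 actin genes, 4 are in the table and all 4 were higher, while the cytoplasmic actin genes Actb and Actg1 are outside it.

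**Figure D2:**
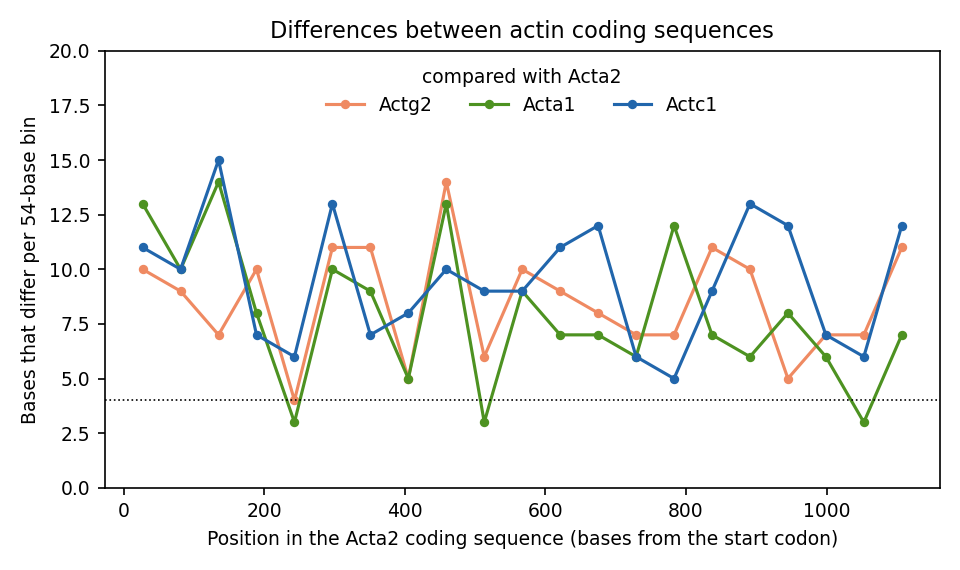
Number of differing bases per 54-base bin along the Acta2 coding sequence (bases from the start codon), for Actg2, Acta1 and Actc1, with a dotted line at 4 differences. The bins held 4 to 14 differences for Actg2, 3 to 14 for Acta1 and 5 to 15 for Actc1, so most bins lie above the line.

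The 2 genes of the mature contractile apparatus, Cnn1 and Myh11, were low in both libraries and higher in the mutant. Cnn1, which encodes calponin, an actin-binding protein that restrains myosin (chromosome 9, 21903697 to 21913665), had 5.78 FPKM in the mutant library and 0.730 FPKM in the control library, a 7.92-fold difference and a log2 ratio of 1.97. Myh11, the smooth muscle myosin heavy chain and the most restricted marker of the lineage (chromosome 16, 14194620 to 14291501), had 4.72 FPKM in the mutant library and 0.635 FPKM in the control library, a 7.44-fold difference and a log2 ratio of 1.81. Both were under 1 FPKM in the control. The authors' deposited table gave q 0.00411 for Cnn1 and 0.000315 for Myh11. With a pseudocount of 5 FPKM in place of 1, the log2 ratios were 0.91 for Cnn1 and 0.79 for Myh11, and neither was called.

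Chrm2 encodes the M2 muscarinic acetylcholine receptor, which is abundant on gut smooth muscle. It had 11.7 FPKM in the mutant library and 1.22 FPKM in the control library, which is 9.57-fold higher in the mutant and a log2 ratio of 2.51. Chrm2 and Actg2 were called higher under all 9 alternative settings, some of which could not remove a call. Chrm2 passed the minimum of 1 FPKM in both libraries only narrowly, at 1.22 FPKM in the control. In the authors' deposited table the q of Chrm2 was 0.000326. The table's locus (chromosome 6, 36283138 to 36474774) begins 54.9 kb before the annotated gene. It overlaps 57.1 kb of the long noncoding RNA gene 9330158H04Rik on the opposite strand, of which 2.11 kb lies within the annotated Chrm2 gene. The locus also holds Mir490 within Chrm2. Whether the reads were counted by strand is not given, so reads from Chrm2 and the noncoding gene cannot be told apart. The other muscarinic receptor genes on the fixed list, Chrm1, Chrm3, Chrm4 and Chrm5, are outside the table.

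Des went the other way. Desmin, the muscle intermediate filament protein (chromosome 1, 75356919 to 75364290), is made by smooth, skeletal and cardiac muscle and by pericytes, the contractile cells on small vessels. It had 10.5 FPKM in the mutant library and 33.4 FPKM in the control library, which is 3.17-fold lower in the mutant and a log2 ratio of −1.58. Its q of 0.00924 was the highest of the 7 in the authors' deposited table. In the control Des was the most abundant of the 7 genes, ahead of Acta2 by 1.39-fold. In the mutant it was the fifth, and Acta2 exceeded it 8.42-fold. Des made up 5.71% of the summed FPKM of the 7 genes in the mutant and 48.5% in the control. Without Des, the other 6 genes summed to 174 FPKM in the mutant library and 35.4 FPKM in the control library, a 4.91-fold difference.

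The order of the other 6 genes by FPKM was the same in both libraries: Acta2, Actg2, Chrm2, Myocd, Cnn1 and Myh11. With no replicate, neighbours in this order cannot be set against a spread. With Des included, the smallest step in the mutant was between Myocd and Des, where the ratio of levels was 1.004. Without Des it was between Chrm2 and Myocd, at 1.10. In the control the smallest step was between Myocd and Cnn1, at 1.01. Relative to Acta2 within the same library, Myocd was at 0.119 in the mutant and 0.0308 in the control, Cnn1 was at 0.0651 in the mutant and 0.0304 in the control, and Myh11 was at 0.0532 in the mutant and 0.0264 in the control.

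**Figure D3:**
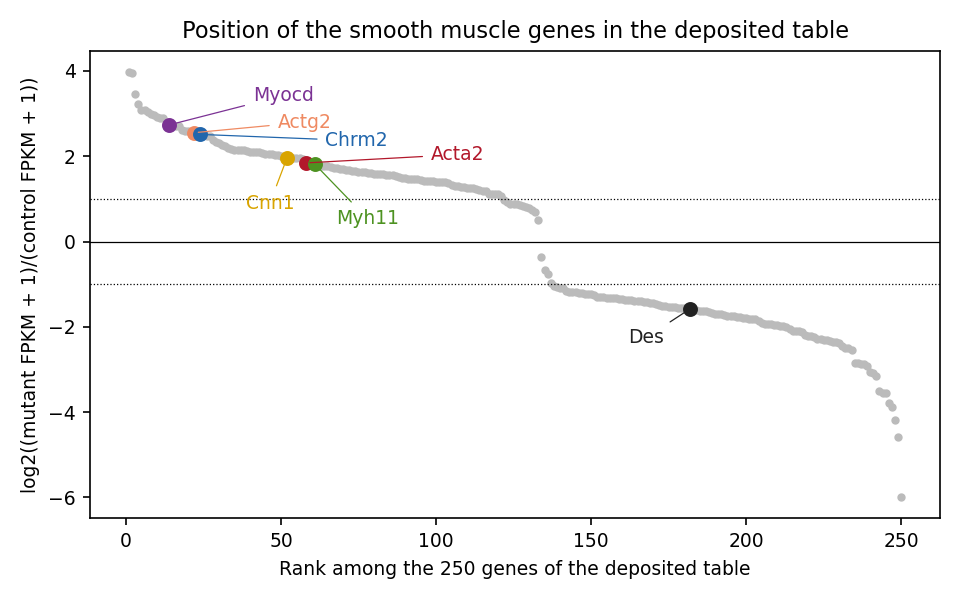
Log2 ratio of each of the 250 genes in the deposited table against its rank, with the 7 smooth muscle genes in colour, other genes in grey and dotted lines at a change of 2-fold. The 6 higher genes lie between ranks 14 and 61 with log2 ratios of 1.81 to 2.74, and Des lies at rank 182.

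Most other smooth muscle genes are outside the table, as are most of all genes tested, of which 1.67% are in it. The lists of smooth muscle regulators, of contractile and filament genes and of receptors and channels hold 96 annotated genes in all. Of these, 14 are in the table, with 10 higher in the mutant and 4 lower. Leaving out the 7 members, 4 of 7 were higher and 3 were lower, beside 48.4% higher and 45.2% lower among all the table's genes. Genes such as Tagln, Lmod1, Smtn and Tpm2, which are typical of this muscle, are among the 82 outside the table. So is Srf, the gene of serum response factor. A gene outside the table either was not tested or did not pass.

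The 4 other higher genes were Synpo2, Mylk, Pde5a and Hand1. Synpo2, an actin-bundling protein of smooth and striated muscle, was at 25.0 FPKM in the mutant library and 2.85 FPKM in the control library, and its log2 ratio of 2.75 was close to that of Myocd. Mylk, the kinase that phosphorylates myosin light chain to start contraction, was at 17.8 FPKM in the mutant library and 3.88 FPKM in the control library. Pde5a, the phosphodiesterase that ends cyclic GMP signalling and thereby limits relaxation, was at 43.1 FPKM in the mutant library and 10.5 FPKM in the control library. Hand1, a transcription factor of gut and other lateral mesoderm, was at 35.3 FPKM in the mutant library and 8.34 FPKM in the control library.

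The 3 other lower genes were Itga8, Abcc9 and Kcnj8. Itga8, the α8 integrin of smooth muscle and other mesenchymal cells, was at 8.75 FPKM in the mutant library and 25.6 FPKM in the control library. Abcc9 and Kcnj8 encode the subunits of a potassium channel of vascular smooth muscle and pericytes. Abcc9 was at 7.22 FPKM in the mutant library and 19.5 FPKM in the control library, and Kcnj8 was at 13.1 FPKM in the mutant library and 33.8 FPKM in the control library. On the pericyte and vascular mural list, 3 of 15 annotated genes are in the table and all 3 were lower. The third is Rgs5, a regulator of G protein signalling that marks pericytes, at 5.73 FPKM in the mutant library and 32.9 FPKM in the control library. The summed level of the 3 genes was 26.0 FPKM in the mutant and 86.2 FPKM in the control. Other pericyte genes such as Pdgfrb and Cspg4, and all 13 endothelial genes on the fixed list, are outside the table. Des, like these genes, was lower in the mutant, and their part in the value of Des was not tested.

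**Figure D4:**
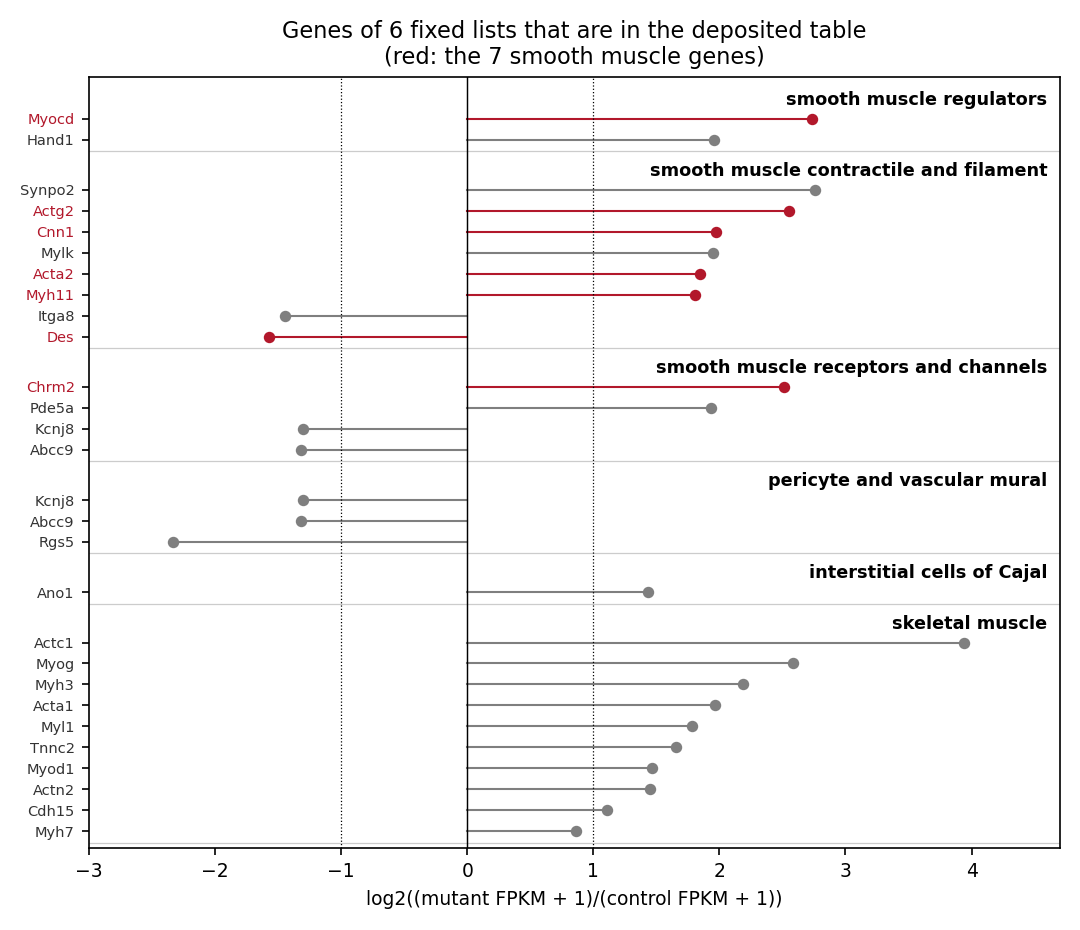
Log2 ratio (horizontal axis) of every gene of 6 fixed lists that is in the deposited table, grouped by list, with the 7 smooth muscle genes in red and dotted lines at a change of 2-fold. Des, Itga8, Abcc9, Kcnj8 and Rgs5 lie on the lower side, at −1.58, −1.45, −1.32, −1.31 and −2.33, and Abcc9 and Kcnj8 appear on 2 lists.

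Striated muscle shares some of these proteins, and most of its markers in the table were also higher. Of 33 annotated skeletal muscle genes, 10 are in the table, with 9 higher and 1, Myh7, not called. Their summed level was 44.2 FPKM in the mutant and 1.69 FPKM in the control. The highest in the control was Acta1, at 0.433 FPKM, so the 9 reached 1 FPKM through the mutant library alone. None of the 9 was called with 1 FPKM required in both libraries, and 2 were with a pseudocount or a minimum of 5 FPKM. The largest log2 ratios were 3.94 for Actc1, 2.58 for the myogenic factor gene Myog and 2.18 for the embryonic myosin gene Myh3. Of 17 cardiac genes, 2 are in the table with 1 called higher, and both are also on the skeletal list. Early skeletal muscle can express Acta2 and Des, and the part of skeletal muscle in the level of either gene was not tested.

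Some genes of the signals and cells that accompany gut muscle are also in the table. Most members of each list are outside it, as are most of all genes tested. On the list of hedgehog and Bmp inputs, 10 of 27 annotated genes are in the table and all 10 were higher. They include the ligand gene Ihh, at 11.5 FPKM in the mutant library and 0.533 FPKM in the control library, and the hedgehog target Gli1, at 27.4 FPKM in the mutant library and 2.55 FPKM in the control library. The forkhead genes of gut mesenchyme are among them too, with Foxf1a at 76.6 FPKM in the mutant library and 8.17 FPKM in the control library. Foxf2 was at 42.0 FPKM in the mutant library and 1.73 FPKM in the control library. When genes under 1 FPKM in either library were left out, 5 of the 10 were called. Ano1, the chloride channel of the pacemaker cells of the gut, was the only gene in the table of the 8 on the list of interstitial cells of Cajal, at 16.1 FPKM in the mutant library and 5.33 FPKM in the control library. On the list for enteric and autonomic neural crest, 8 of 22 annotated genes are in the table and all 8 were higher. They include the ligand gene Gdnf and are called neural below after the list. After centring on the table median, 2 of these 8 and 0 of 1 Cajal gene were called, and with a q of at most 0.01, 4 of 8 and 0 of 1 were.

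By levels in the pair of libraries, the table gene most like Myh11 was Chrna3, which encodes a nicotinic acetylcholine receptor subunit, at 4.68 FPKM in the mutant library and 0.663 FPKM in the control library. Likeness was the distance between genes in log2 FPKM over the 2 libraries, here 0.07. The gene nearest to Myocd was Foxa1, at a distance of 0.19, and the one nearest to Actg2 was Ptch1, at 0.32. The retinol dehydrogenase gene Rdh10 was nearest to Des (0.22), and Acta2 had no gene nearer than Nrp2 (0.72). Over 2 libraries such nearness says only that the levels are alike.

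The count of higher genes depended on the scaling. The median log2 ratio of the 238 table genes that passed the FPKM minimum was 1.11, and after this was subtracted 3 of the 7 genes, Myocd, Actg2 and Chrm2, were higher and 1 was lower, in place of 6 and 1. Acta2 was then at 0.73, Cnn1 at 0.86 and Myh11 at 0.69. All genes of that median were selected for change, and the median of all genes tested may be far from it. Each of the 7 kept its direction.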

How the data were processed

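The data were 1 table of 250 genes from 2 libraries of whole embryonic pancreas. Per the labels, reads were aligned to mm9 with TopHat 2.0.4, allowing 4 mismatches and up to 10 hits per read; CASAVA 1.8.2 and Cufflinks stand in the submitters' processing notes. The authors deposited an FPKM value per gene and library. They also deposited a log2 fold change, which equals the log2 ratio of the FPKM values within 1.42e-05, a test statistic (a score of opposite sign), a p-value and its q-value. The sources differ on the program behind the q-values: the labels name DESeq for the calls, while the column names, per the file headers, match Cuffdiff output (Cuffdiff is part of Cufflinks). They do not give the scaling between libraries, the annotation or the use of strand. All rows are marked significant, with q up to 0.0496. Rank, p and q together give 14984 genes tested.

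From the FPKM values, log2((mutant + 1)/(control + 1)) was computed and the rule of size applied, with 9 alternatives. No test was run, since there is 1 library per genotype. The pseudocount understates changes of low genes. The members and all gene lists were chosen with earlier results of these data known. The text names all members, every table gene on the smooth muscle, actin and Cajal lists, up to 5 genes with the largest ratios from other lists, and for members the nearest gene in level; some genes that this rule selects are not reported here. Genes named as outside the table, and Cpa1 and Gcg, were chosen afterwards. Coding sequences (GENCODE vM1, mm9) were aligned globally with Biopython 1.88. Of the 7 members, 4 were in the RefSeq promoter table. Other steps used Python 3.11.15, pandas 2.3.3 and numpy 2.4.6. The rule and the alignment were tested on simulated data. Those for the rule had no noise and no changed genes with low control levels. They do not show how often the rule errs in these libraries.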

Additional observations from a re-analysis of the deposited data

How the results depend on the processing

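No paired analysis was possible because each genotype has 1 library. Leaving out a library leaves no comparison. Actg2 and Chrm2 were called under all 9 alternatives, Myocd and Des under 8, Acta2 under 7, Cnn1 under 5 and Myh11 under 4, and none of the 7 changed direction. Low control values, in FPKM of unknown depth, limit Myocd, Cnn1 and Myh11. Chrm2, at 1.22 FPKM in the control, was also near the minimum of 1 FPKM. The moves below follow from the construction of each alternative.

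The median log2 ratio of the 7 genes, 1.97, was 2.71 with a pseudocount of 0.1, 1.42 with 5, 2.90 with the authors' deposited log2 fold change, 0.86 after centring, 2.18 over the genes at 1 FPKM or more in both libraries and 2.24 over those reaching 5 FPKM. Of 6 higher members, 3 passed after centring, 3 with 1 FPKM in both libraries and 3 at 4-fold, where 0 of 1 lower passed. With a pseudocount of 5, and likewise with a minimum of 5 FPKM, 2 of 9 higher skeletal and 0 of 1 cardiac genes passed. Centring left 1 of 2 higher regulators, 2 of 6 contractile genes, 1 of 2 receptors, 3 skeletal, 0 cardiac, 0 of 1 Cajal, 2 of 8 neural and 2 of 4 actin genes. With 1 FPKM in both libraries 1 regulator, 0 skeletal, 0 cardiac, 5 of 10 hedgehog and Bmp and 2 actin genes passed. At 4-fold 1 regulator, 2 contractile, 1 receptor, 3 skeletal, 0 cardiac, 0 Cajal, 4 neural and 2 actin genes passed as higher, and as lower 0 of 2 contractile, 0 of 2 receptor and 1 of 3 pericyte genes. A q of at most 0.01 left 0 lower receptor, 1 lower pericyte, 0 Cajal and 4 neural genes.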

Other observations

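Some members lie near other genes of the table on mm9. The table gene closest to Cnn1 was Elavl3, a neuronal RNA-binding protein gene 0.0472 Mb away, at 2.76 FPKM in the mutant library and 0.352 FPKM in the control library. The closest to Des was Ihh, 0.359 Mb away, which was higher in the mutant where Des was lower. The closest to Actg2 was the homeobox gene Tlx2, 0.443 Mb away, at 16.8 FPKM in the mutant library and 3.14 FPKM in the control library. The other members had no table gene within 1 Mb.

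Paralogs of the other members were compared in the same way. Across 13 comparisons of the coding sequences of the other 5 members with their relatives, identity was 51.3% to 75.3%, against 82.0% to 85.4% over 10 comparisons of Acta2 and Actg2 with other actins. The shares of 50-base windows with 4 or fewer differences overlapped, at 0.00% to 3.92% for the other members and 3.60% to 12.9% for the actins. The highest of the other members was Myh11 against the nonmuscle myosin gene Myh9, with an identical run of 65 bases, longer than in any actin pair, where the longest was 56 bases.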
